A study of Mus musculus with 190 samples.

Results

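Among the genes measured in whole blood of NC/Nga mice were 7 receptors by which lymphocytes enter skin and inflamed tissue: Ccr4, Ccr10, Ccr8, Cxcr3, Cxcr6, Ccr6 and Itgae. They were chosen by gene symbol, with earlier results of these data known, and all 7 were found among the 55414 genes of the count table. In each comparison 6 of the 7 passed the filter on low counts. Ccr8 passed in none and is described by its reads.

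The mice were males of genotype WT, of the inbred strain NC/Nga, which is known for skin lesions like those of atopic dermatitis when it is kept outside a barrier facility. In conventional housing, 9 cohorts of 10 mice were first bled on days 2, 5, 9, 12, 16, 19, 23, 26 and 30 (cohorts 1 to 9 in that order). The second bleed was on day 44 for the odd-numbered cohorts and on day 40 for the even-numbered ones. A control cohort of 5 specific-pathogen-free (SPF) mice was bled on days 16 and 44. The labels name no treatment and give each mouse a visible dermatitis score. The score was 0 in 58 of the 90 first-sampling conventional libraries, and every library of days 2, 5 and 9 was at 0. At the second sampling 7 of 90 libraries were at 0, while 27 were at 2, 39 at 3 and 1 at 4. All 10 SPF libraries had a score of 0. Housing and first day are each set for a whole cohort, and there was 1 SPF cohort, so an effect of either cannot be told apart from an effect of the cohort. The p-values below measure only the spread between libraries.

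The libraries held 21444113 to 71967285 counts, with a median of 36448166.5. Lymphocyte genes were present throughout: a list of 16 T cell genes summed to between 155.2 and 434 CPM (counts scaled to the library total as adjusted by the trimmed mean of M-values, TMM) over the conventional second-sampling libraries. Globin transcripts took a median of 3.58% of counts in cohorts 1 to 4 and 7.83% in cohorts 6 to 9, and mitochondrial ribosomal RNA took 6.92% and 15.4%, so results over all cohorts are also given within these sets of cohorts. In 1 SPF library, replicate 3 of day 16, globin took 45.3%. In bulk blood RNA, fewer cells of a type and less RNA per cell cannot be told apart.

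Chemokine receptors are proteins of the cell surface that let leukocytes follow chemokines out of the blood and into tissue, and each T cell subset carries its own set. Ccr4 binds Ccl17 and Ccl22, marks T helper type 2, regulatory and skin-homing T cells, and its ligand Ccl17 is a well-known serum marker of atopic dermatitis severity. Ccr10 binds the keratinocyte chemokine Ccl27, Ccr8 binds Ccl1 and Ccl8, Cxcr3 binds the interferon-induced Cxcl9 and Cxcl10, Cxcr6 binds Cxcl16, and Ccr6 binds Ccl20. Itgae encodes the integrin alpha E chain (CD103), which pairs with the beta 7 chain from Itgb7 and holds lymphocytes in epithelium by binding E-cadherin, the product of Cdh1.

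Promoter sequences are shown for 4 members, Ccr4, Cxcr3 and Cxcr6, which rose relative to most blood genes from the first to the second sampling, and Ccr6, which fell. They are the 250 bases before the transcription start in RefSeq on build GRCm38.p6, an older build than the GRCm39 of the count table, and 5 of the 7 members had an entry. They lie at chr9:114496545-114496794 on the minus strand, chrX:101734148-101734397 on the minus strand, chr9:123806227-123806476 on the plus strand and, for the first of the 2 Ccr6 entries, chr17:8235793-8236042 on the plus strand. Each is written 5′ to 3′, and capitals mark matches on either strand to short motifs bound by lymphocyte transcription factor families: AGGTGT for T-box factors, AGATAA for the factors named after it (the Gata family), TGTGGT for RUNX factors and likewise TGCGGT for them, and AGGAAG for the ETS family.
Ccr4: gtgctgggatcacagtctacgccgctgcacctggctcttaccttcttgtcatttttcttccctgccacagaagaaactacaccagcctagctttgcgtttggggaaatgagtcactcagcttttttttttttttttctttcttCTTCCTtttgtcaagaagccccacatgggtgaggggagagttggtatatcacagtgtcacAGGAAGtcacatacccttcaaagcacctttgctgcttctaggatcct
Cxcr3: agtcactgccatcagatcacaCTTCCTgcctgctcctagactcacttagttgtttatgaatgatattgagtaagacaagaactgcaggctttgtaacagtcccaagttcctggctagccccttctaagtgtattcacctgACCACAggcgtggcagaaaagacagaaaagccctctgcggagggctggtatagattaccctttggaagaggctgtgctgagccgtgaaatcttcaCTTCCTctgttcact
Cxcr6: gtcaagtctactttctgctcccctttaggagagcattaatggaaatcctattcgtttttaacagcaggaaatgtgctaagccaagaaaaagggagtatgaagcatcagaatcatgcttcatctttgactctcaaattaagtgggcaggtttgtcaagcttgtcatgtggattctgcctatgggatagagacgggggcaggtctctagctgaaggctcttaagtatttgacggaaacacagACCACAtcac
Ccr6: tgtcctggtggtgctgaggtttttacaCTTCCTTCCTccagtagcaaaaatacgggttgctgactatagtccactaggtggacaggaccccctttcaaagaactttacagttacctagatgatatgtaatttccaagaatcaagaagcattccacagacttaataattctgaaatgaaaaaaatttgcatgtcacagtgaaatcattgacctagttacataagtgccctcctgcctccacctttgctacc
The ETS motif was present in the promoters of Ccr4, Cxcr3 and Ccr6 and in that of Ccr8, 4 of the 6 entries for the members, and it occurs in 29.5% of the 32851 RefSeq promoters of that length. In the Ccr6 promoter its 2 matches share bases. The RUNX motif TGTGGT was present in those of Cxcr3 and Cxcr6 and occurs in 14.1% of all promoters. The Gata motif was in 2 of the 6 entries, that of Ccr8 and the second of Ccr6, and 9.99% of all promoters hold it. No T-box motif was in any of the 6 entries for the members, and 11.8% of all promoters hold it. These are matches of letters, not measured binding.

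The members differed widely in abundance, all at a low level. In TPM (transcript abundance corrected for gene length, deposited by the authors), the median over 190 libraries was 2.31 for Ccr6, 0.675 for Cxcr6, 0.236 for Cxcr3, 0.221 for Itgae, 0.116 for Ccr4, 0.0505 for Ccr10 and 0 for Ccr8. The reads behind these values were a median of 290.0 per library for Ccr6 and 46.5 for Ccr4, but only 10.0 for Ccr10, so Ccr10 is the least precise of the tested members. Genes on the opposite strand overlap 3 of them: Cntnap1 overlaps Ccr10, Fyco1 overlaps Cxcr6 and Haspin overlaps Itgae. The library kit keeps strand, but the strand setting used in counting is not given in the sources used here, and Fyco1, with a median of 1535.0 reads, had more reads than Cxcr6. After group means were removed, the level of each member and its overlapping gene had a Pearson r of 0.13 for Ccr10, -0.020 for Cxcr6 and -0.17 for Itgae over 190 libraries.

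Relative to the bulk of blood genes, Ccr4 and Ccr6 were both called with housing on day 44, over days and between samplings, in opposite directions. Ccr4 was lowest in the SPF mice and rose over the first-sampling days. In the fit to all conventional cohorts Ccr4 was higher at the second sampling than at the first. Its mean over the conventional second-sampling libraries, 1.52 CPM, was not above the day 30 mean of 1.68 CPM. Ccr6 was highest in the SPF mice in TMM-scaled CPM and fell with day, with the second sampling and with dermatitis score. In the deposited TPM cohort 6 on day 19, at 3.80, lay above SPF mice on day 16, at 3.33, but below those on day 44, at 4.86. Cxcr3 and Cxcr6 were called higher between samplings and in no other comparison as planned, and Itgae fell slightly with time. Ccr10 passed the test in no comparison as planned.

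These calls stand against a blood transcriptome that changed broadly. All tests used edgeR's quasi-likelihood model on the whole table, and a gene counts as called where its adjusted p (Benjamini-Hochberg) is below 0.05. Over the first-sampling days 1 of 6 tested members rose and 2 fell, where 56.1% of 16420 genes were called, 26.5% higher and 29.6% lower. Between samplings 3 rose and 2 fell, where 64.2% of 17027 genes were called, 32.9% higher and 31.3% lower. With dermatitis score 1 fell at the second sampling, where 43.1% of 15480 genes were called, 21.3% higher and 21.8% lower. At the first sampling 1 fell with score, where 12.3% of 15746 were called, 6.93% higher and 5.34% lower. In conventional against SPF mice on day 44, 1 was higher and 1 lower, where 22.4% of 16017 genes were called, 11.5% higher and 10.9% lower. The median log2 difference of the 6 members on day 44 was 0.25, beside -0.035 over all genes. On day 16 none of the 6 was called, where 0.747% of 15798 genes were called. On day 16 edgeR gave 2 of the 6 an unadjusted p under 0.05, and DESeq2 called 1, Ccr4. The counts over days and between samplings are near what the whole table shows and are not read as a result about these receptors.

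These directions are on the TMM scale, which sets each gene against the bulk of genes. With libraries scaled by their totals alone, a choice made after seeing the data, the median gene shifted by -0.36 log2 between samplings, -0.16 per 10 days, -0.18 and -0.12 per score point at the second and first sampling and -0.68 on day 44. The share of called genes that were higher was then 12.5% between samplings in place of 51.2%, 12.3% over days in place of 47.2%, 5.32% on day 44 in place of 51.2% and 8.67% with second-sampling score in place of 49.4%. With first-sampling score 7 genes were called, and on day 16 0.114%. Ccr6 stayed called lower between samplings, over days, on day 44 and with second-sampling score, and Itgae between samplings and over days. Ccr4, Cxcr3 and Cxcr6 were not called higher in any comparison on that scale, so their rises below are relative to other genes.

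**Figure D1:**
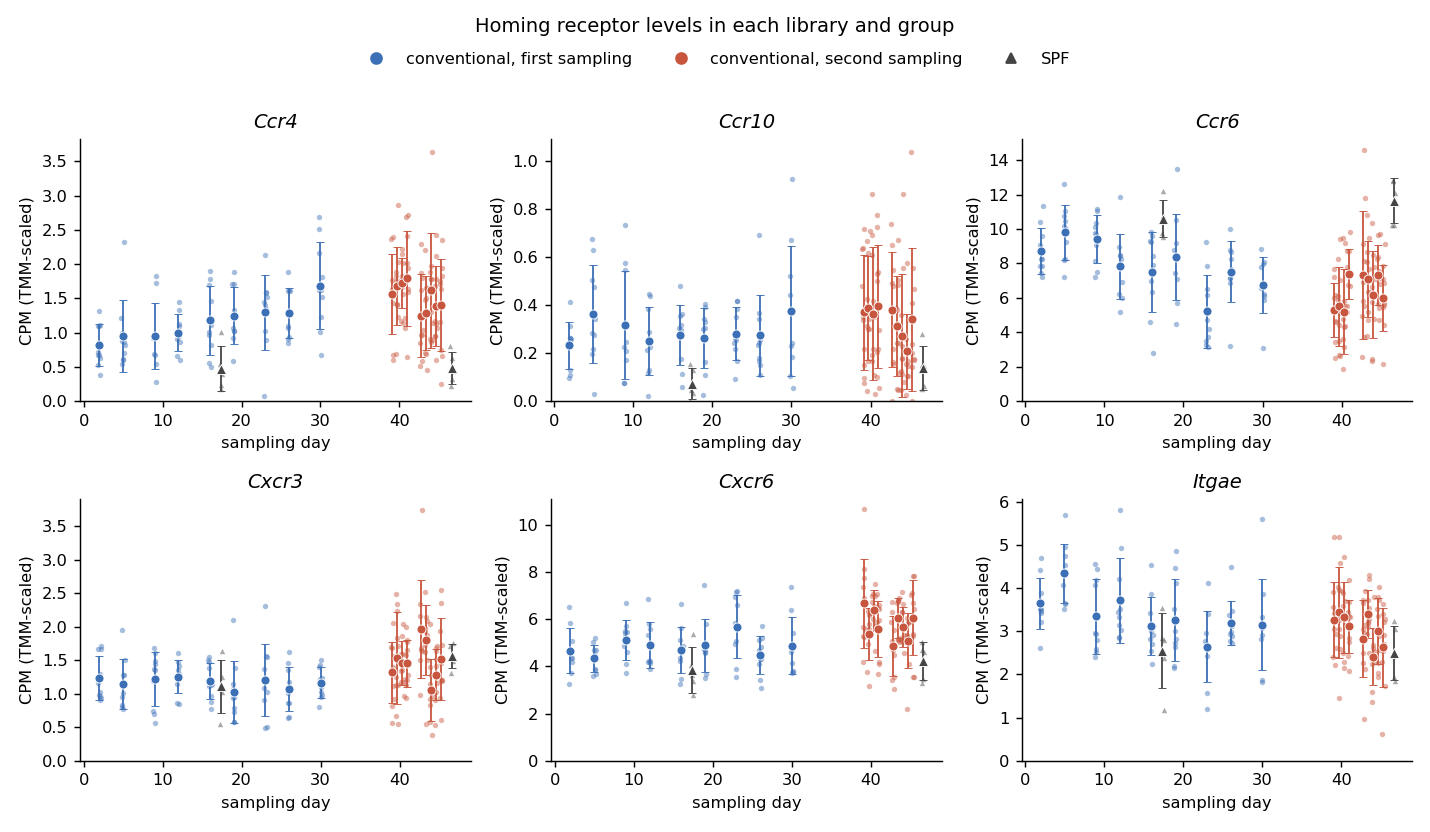
Level of each of the 6 tested members in CPM (TMM-scaled) against sampling day. Small points are libraries, large points and bars are group means ± SD, and groups that share a day are drawn side by side. Ccr4 is lowest in the SPF mice (triangles) and Ccr6 highest, while the conventional groups overlap one another.

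Ccr4, the receptor of skin-homing and type 2 T cells (GRCm39, chromosome 9, 114319384 to 114333984, minus strand), was at 0.179, 0.536, 1.01, 0.393 and 0.242 CPM in the 5 SPF libraries of day 16. On day 44 the SPF libraries were at 0.440, 0.799, 0.222, 0.322 and 0.626 CPM. The SPF levels were low on both days, and the highest SPF value was in the library with 45.3% globin. The conventional libraries of day 16 ran from 0.495 to 1.90 CPM with a median of 1.06, and those of day 44 from 0.244 to 3.64 CPM with a median of 1.29. On day 16, 5 of 10 conventional libraries were above the highest SPF library, and on day 44, 41 of 50 were, so the groups overlapped on both days. The day 44 difference was 1.47 ± 0.36 log2 (SE), or 2.77-fold, with an adjusted p of 0.00249, and with library totals alone 0.78 ± 0.46 with an adjusted p of 0.143. The day 16 difference was of like size, 1.35 ± 0.41 log2, with an adjusted p of 0.0970. Without the SPF libraries of replicate number 3 on both days, among them the globin-rich one, it was 1.83 ± 0.43 log2 with an adjusted p of 0.0329. That fit was 1 of 5 that each left out 1 SPF replicate number. Restricted to the 8 conventional libraries of day 44 with a score of 0 or 0.5, a choice made after seeing the data, the Ccr4 difference was 1.03 ± 0.37 log2 with an adjusted p of 0.213.

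Within conventional housing, Ccr4 was at 0.822 ± 0.308 CPM on day 2 (SD, n = 10, range 0.382 to 1.32) and at 1.68 ± 0.64 CPM on day 30 (n = 10, range 0.671 to 2.68), and libraries of those days overlapped. Means of the days between lay from 0.949 on day 9 to 1.30 on day 23. The trend was 0.31 ± 0.068 log2 per 10 days with an adjusted p of 8.32e-05, and it was called with each of the 9 days left out in turn, at 0.27 to 0.34. By library totals alone it was 0.15 ± 0.080 with an adjusted p of 0.0913. In the libraries of score 0 only, it was 0.16 ± 0.12 with an adjusted p of 0.336. Within cohorts 1 to 4 it was 0.19 ± 0.24 with an adjusted p of 0.603, and within cohorts 6 to 9 0.36 ± 0.22 with an adjusted p of 0.471, so the trend was not called inside either set of 4 days.

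At the second sampling Ccr4 ran from 0.244 to 3.64 CPM with a median of 1.62, against 0.0752 to 2.68 with a median of 1.05 at the first. The ranges overlap almost fully, while the mean was higher at the second sampling in 8 of 9 cohorts in TMM-scaled CPM and in 6 of 9 in the deposited TPM. In CPM the exception was cohort 9, first bled on day 30. The difference was 0.42 ± 0.093 log2, 1.33-fold, with an adjusted p of 3.81e-05, and with library totals alone 0.056 ± 0.11 with an adjusted p of 0.657. On the TMM scale it was 0.58 ± 0.13 with an adjusted p of 9.75e-05 within cohorts 1 to 4 and 0.18 ± 0.14 with an adjusted p of 0.346 within cohorts 6 to 9. The interval between the bleeds was shorter in the later cohorts, and the difference between the sets was not tested. In the order of the 20 group means, from 0.471 CPM in SPF mice on day 16 to 1.79 in cohort 8 on day 40, 1 of 19 neighbouring pairs lay apart by more than the larger SD.

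Ccr4 passed neither test on score as planned. On days 12 to 30 its mean was 1.06 ± 0.42 CPM at score 0 (n = 28), 1.18 ± 0.32 at 0.5 (n = 9), 1.57 ± 0.46 at 1 (n = 12) and 1.64 ± 0.56 at 2 (n = 10), with a slope of 0.27 ± 0.13 log2 per score point and an adjusted p of 0.169. With globin and mitochondrial ribosomal RNA shares as covariates the slope was 0.37 ± 0.13 with an adjusted p of 0.0454. At the second sampling the means were 1.15 ± 0.42 CPM at score 0 (n = 7), 1.67 ± 0.61 at 2 (n = 27) and 1.53 ± 0.63 at 3 (n = 39), and the slope was 0.099 ± 0.070 with an adjusted p of 0.258. The only library of score 4 was at 0.460 CPM, and without it the slope was 0.12 ± 0.069. Within cohorts 1 to 4, and with library totals alone, the second-sampling slope was negative. With the mean of the T cell list as a covariate the second-sampling slope was 0.21 ± 0.070 with an adjusted p of 0.0379. This is the slope at a given mean level of the T cell list. The slopes of both samplings differed by -0.26 ± 0.13 with an adjusted p of 0.244.

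Ccr10, the receptor for the keratinocyte chemokine Ccl27, which is also carried by plasma cells (chromosome 11, 101063823 to 101066269, minus strand), was the member with the fewest reads after Ccr8. The SPF libraries of day 16 were at 0.130, 0.153, 0.0347, 0 and 0.0483 CPM, and those of day 44 at 0.147, 0.150, 0.277, 0.0495 and 0.0626 CPM. On day 16, 8 of the 10 conventional libraries were above the highest SPF library, with a range of 0.0590 to 0.481 CPM. The difference of 1.81 ± 0.68 log2 had an adjusted p of 0.193, and that of day 44, 1.11 ± 0.58 log2, had one of 0.155. Neither passed, although the SPF means were the lowest of the 20 groups. The first-sampling trend was 0.041 ± 0.10 log2 per 10 days (adjusted p 0.749), and the change between samplings 0.20 ± 0.15 log2 (adjusted p 0.248). With the mean of the T cell list as a covariate the change between samplings was 0.38 ± 0.16 log2 with an adjusted p of 0.0428. With globin and mitochondrial ribosomal RNA shares as covariates the trend was 0.40 ± 0.14 log2 per 10 days with an adjusted p of 0.0171. Score slopes were -0.11 ± 0.21 at the first and -0.029 ± 0.13 at the second sampling, with adjusted p-values of 0.782 and 0.874, and differed by -0.032 ± 0.22 (adjusted p 0.959).

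Ccr8, a receptor of skin-resident and regulatory T cells (chromosome 9, 119921180 to 119923972, plus strand), was near the limit of detection. It had 62 reads in all, in 28 of 190 libraries, and 6 at most in 1 library. Of the 20 groups, 6 had no read, among them SPF mice on day 16. The most reads were in cohort 2 on day 5, with 13 reads over 6 libraries, and in cohort 7 on day 44, with 11 over 3 libraries, a group before and a group after the onset of lesions. A library with 0 reads allows up to 3 reads, which is 0.0385 to 0.283 CPM depending on the library, and this limit covers counting error only. Ccr8 was not tested.

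Cxcr3, the receptor of type 1 T cells for interferon-induced chemokines (chromosome X, 100775141 to 100777875, minus strand), was not called over the first-sampling days and was higher at the second sampling on the TMM scale. First-sampling libraries ran from 0.495 to 2.31 CPM with a median of 1.15, and second-sampling libraries from 0.381 to 3.74 CPM with a median of 1.49. The ranges overlapped and the mean was higher at the second sampling in 8 of 9 cohorts, all but cohort 5, in TMM-scaled CPM and in 5 of 9 in the deposited TPM. The change was 0.33 ± 0.075 log2, 1.26-fold, with an adjusted p of 5.40e-05, and with library totals alone -0.055 ± 0.10 with an adjusted p of 0.622. On the TMM scale it was 0.38 ± 0.11 in cohorts 1 to 4, and in cohorts 6 to 9 it was 0.34 ± 0.11, with adjusted p-values of 0.00187 and 0.0204. In SPF mice Cxcr3 was at 0.553, 1.02, 1.25, 1.09 and 1.64 CPM on day 16 and at 1.49, 1.55, 1.72, 1.31 and 1.75 CPM on day 44, so the SPF mean was also higher at the later bleed. On the TMM scale conventional and SPF mice differed by 0.11 ± 0.27 log2 on day 16 and -0.076 ± 0.27 on day 44 (adjusted p 0.910 and 0.864). In the deposited TPM the SPF mean of day 44 was 0.412, and the conventional means of that day ran from 0.224 to 0.301. TPM was not tested. The day trend was -0.054 ± 0.053 log2 per 10 days (adjusted p 0.394), and with library totals alone -0.20 ± 0.067 (adjusted p 0.00560). The score slopes were -0.16 ± 0.11 and -0.0052 ± 0.062 (adjusted p 0.371 and 0.956), and differed by 0.16 ± 0.11 (adjusted p 0.443).

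Cxcr6, the receptor for Cxcl16 on tissue-seeking effector and innate-like T cells (chromosome 9, 123635540 to 123640825, plus strand), was likewise called between samplings and in no other comparison as planned. It ran from 3.06 to 7.44 CPM with a median of 4.71 at the first sampling and from 2.19 to 10.7 CPM with a median of 5.82 at the second. Its mean was higher at the second sampling in all cohorts but cohort 7, 8 of 9, in TMM-scaled CPM but in 3 of 9 in the deposited TPM, and the ranges overlapped. The change was 0.24 ± 0.047 log2, 1.18-fold, with an adjusted p of 3.26e-06, and with library totals alone -0.12 ± 0.075 with an adjusted p of 0.140. On the TMM scale in cohorts 1 to 4 it was 0.21 ± 0.069 and in cohorts 6 to 9 it was 0.20 ± 0.076, with adjusted p-values of 0.00672 and 0.0456. SPF libraries were at 2.80, 4.05, 3.40, 5.39 and 3.62 CPM on day 16 and at 3.31, 4.63, 5.05, 3.46 and 4.71 CPM on day 44. On day 44, 37 of 50 conventional libraries were above the highest SPF library in TMM-scaled CPM. In the deposited TPM the order was reversed: the SPF mean was 0.878, and the conventional means of that day ran from 0.621 to 0.875. The TMM-scale difference on day 44, 0.35 ± 0.16 log2, had an adjusted p of 0.108 and did not pass, and with library totals alone it was negative. On day 16 the difference was 0.29 ± 0.16 log2 with an adjusted p of 0.437. The trend over days was 0.023 ± 0.035 log2 (adjusted p 0.590), and with library totals alone -0.15 ± 0.044 (adjusted p 0.00171). Score slopes were 0.097 ± 0.069 and 0.034 ± 0.037 log2 per point (adjusted p 0.377 and 0.476), and differed by -0.026 ± 0.069 (adjusted p 0.879).

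Ccr6, the receptor for Ccl20 on B cells and type 17 T cells (chromosome 17, 8454875 to 8475973, plus strand), was the most abundant member and the 1 member called with dermatitis score as planned. SPF libraries were at 9.52, 10.8, 10.8, 9.75 and 12.2 CPM on day 16 and at 10.2, 12.9, 12.8, 10.2 and 12.1 CPM on day 44. Conventional libraries of day 44 ran from 2.13 to 14.6 CPM with a median of 6.74, and 46 of 50 were below the lowest SPF library. The difference was -0.81 ± 0.23 log2, 0.571-fold, with an adjusted p of 0.00893. On day 16, 8 of 10 conventional libraries were below the lowest SPF library, and the difference of -0.49 ± 0.26 log2 had an adjusted p of 0.398. With the 8 conventional libraries of day 44 at score 0 or 0.5 only, it was -0.54 ± 0.26 log2 with an adjusted p of 0.318.

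Ccr6 was at 8.73 ± 1.36 CPM on day 2 (SD, n = 10, range 7.20 to 11.3), at 9.81 ± 1.60 on day 5 and at 6.74 ± 1.62 on day 30 (range 3.08 to 8.84), with the lowest first-sampling mean on day 23, 5.23 ± 2.12. It fell by 0.21 ± 0.047 log2 per 10 days with an adjusted p of 8.17e-05, and in the libraries of score 0 the trend was -0.15 ± 0.066 with an adjusted p of 0.0649. With globin and mitochondrial ribosomal RNA shares as covariates it was -0.097 ± 0.063 with an adjusted p of 0.232. In cohorts 1 to 4 the trend was -0.20 ± 0.12, and in cohorts 6 to 9 it was -0.18 ± 0.18, with adjusted p-values of 0.202 and 0.709. From the first to the second sampling Ccr6 fell by 0.30 ± 0.075 log2 with an adjusted p of 0.000205, and its mean was lower in 8 of 9 cohorts, in CPM and in TPM. The change was -0.55 ± 0.10 log2 within cohorts 1 to 4 (adjusted p 2.59e-06) and -0.11 ± 0.11 within cohorts 6 to 9 (adjusted p 0.497).

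By score, Ccr6 at the second sampling was at 8.38 ± 3.32 CPM at score 0 (n = 7, range 4.78 to 14.6), 6.35 ± 2.49 at 0.5 (n = 5), 6.33 ± 2.27 at 1 (n = 11), 7.16 ± 2.15 at 2 (n = 27, range 2.13 to 11.8) and 5.53 ± 2.04 at 3 (n = 39, range 2.32 to 9.69). The means do not fall in the order of the scores, the libraries of these scores overlapped, and the 1 library of score 4 was at 4.74 CPM. The fitted slope was a fall: Ccr6 fell by 0.20 ± 0.060 log2 per score point with an adjusted p of 0.00475. The slope was -0.24 ± 0.094 within cohorts 1 to 4 (adjusted p 0.0369) and -0.073 ± 0.085 within cohorts 6 to 9 (adjusted p 0.690). At the first sampling it fell by 0.33 ± 0.095 log2 per score point with an adjusted p of 0.0141, from 8.01 ± 2.26 CPM at score 0 (n = 28) to 5.22 ± 2.16 at 2 (n = 10), and within cohorts 6 to 9 by 0.34 ± 0.093 with an adjusted p of 0.0194. Set as scores above 0 against 0 it was -0.35 ± 0.14 log2 with an adjusted p of 0.147, with globin and mitochondrial ribosomal RNA shares as covariates -0.26 ± 0.094 with an adjusted p of 0.0530, and with library totals alone -0.46 ± 0.14 with an adjusted p of 0.0580. Set as a contrast of score 2 or more against less at the second sampling, the difference was -0.24 ± 0.14 log2 with an adjusted p of 0.195. The slopes of both samplings differed by 0.15 ± 0.11 with an adjusted p of 0.463. For the difference of slopes edgeR called none of the 6 members, where 2.48% of 16563 genes were called. Of the 6, 1 had an unadjusted p under 0.05, as did 3312 of the 16563 genes. DESeq2 called 0 of the 6 and 1243 genes in all.

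Itgae, the epithelial retention integrin chain (chromosome 11, 72981409 to 73038272, plus strand), fell slightly with time. It was at 3.65 ± 0.59 CPM on day 2, 4.34 ± 0.68 on day 5 and 3.15 ± 1.06 on day 30 (SD, n = 10 each), with the lowest first-sampling mean, 2.64 ± 0.82, on day 23. The trend was -0.16 ± 0.041 log2 per 10 days with an adjusted p of 0.000598. It was -0.10 ± 0.046 with an adjusted p of 0.0571 when day 5 was left out, and 0.0047 ± 0.16 within cohorts 6 to 9. From 1.20 to 5.81 CPM with a median of 3.16 at the first sampling, Itgae moved to 0.610 to 5.19 CPM with a median of 3.10 at the second. It fell by 0.15 ± 0.058 log2 with an adjusted p of 0.0218, with a lower mean in 6 of 9 cohorts in CPM, while in TPM 1 of 9 was higher. Without cohort 2 or cohort 5 the adjusted p was 0.127 or 0.0883. SPF libraries were at 1.19, 3.54, 2.84, 2.39 and 2.80 CPM on day 16 and at 2.43, 3.06, 1.94, 1.86 and 3.23 CPM on day 44, and overlapped the conventional libraries of the same days. The housing differences were 0.29 ± 0.22 and 0.15 ± 0.21 log2 (adjusted p 0.611 and 0.628). With library totals alone the day 44 difference was negative. In the deposited TPM the SPF mean of day 44 was 0.247, and the conventional means of that day ran from 0.184 to 0.212. Score slopes were -0.12 ± 0.086 and 0.027 ± 0.048 log2 per point (adjusted p 0.376 and 0.677), and differed by 0.11 ± 0.089 (adjusted p 0.533).

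**Figure D2:**
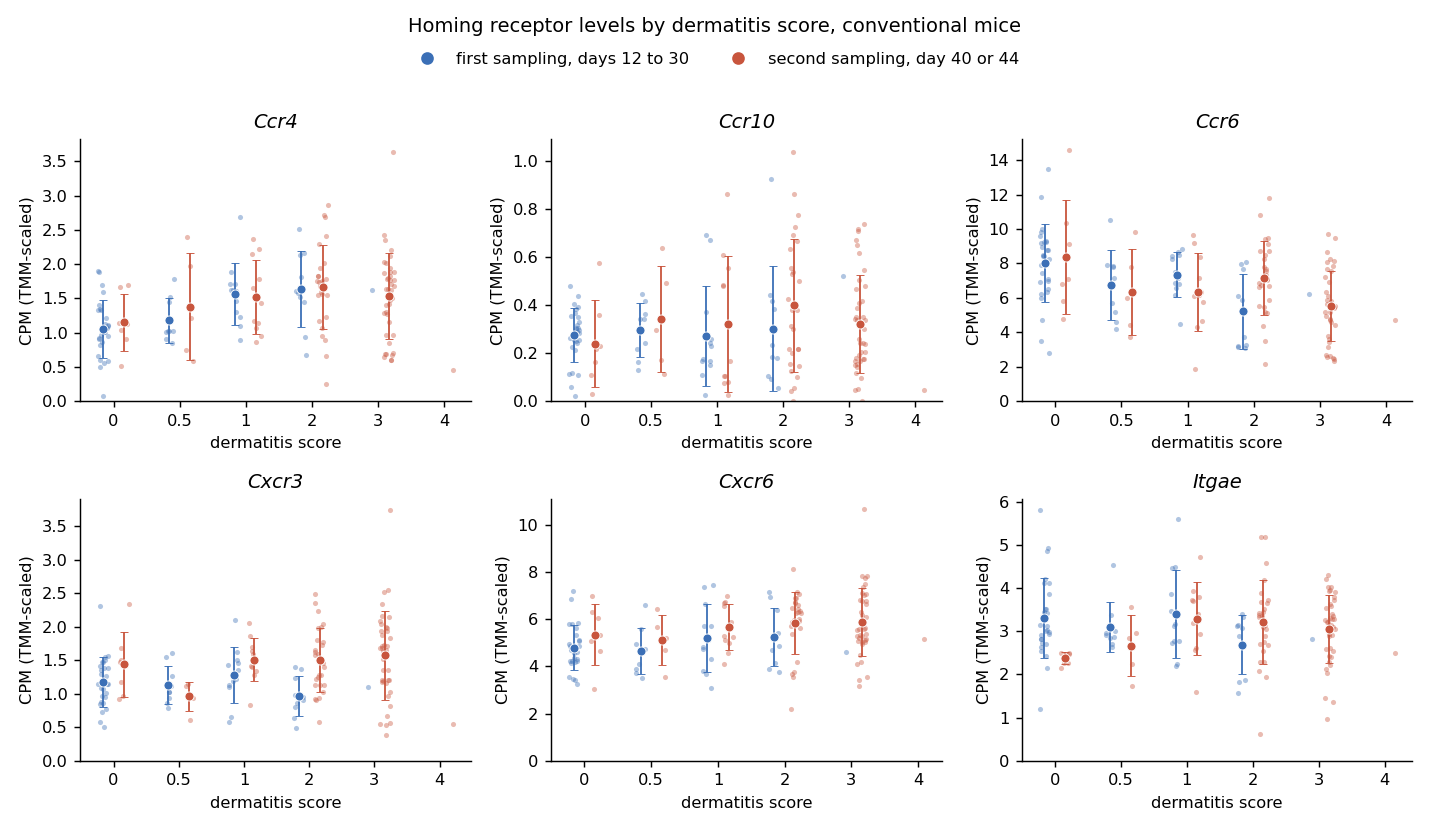
Level of each tested member in CPM (TMM-scaled) by dermatitis score in conventional mice, for days 12 to 30 of the first sampling and for the second sampling. Small points are libraries, large points and bars are means ± SD, and score classes are evenly spaced. Ccr6 is lower at score 3 (5.53 CPM) than at 0 (8.38 CPM) at the second sampling, with wide overlap, and single libraries stand at score 3 of the first and score 4 of the second sampling.

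**Figure D3:**
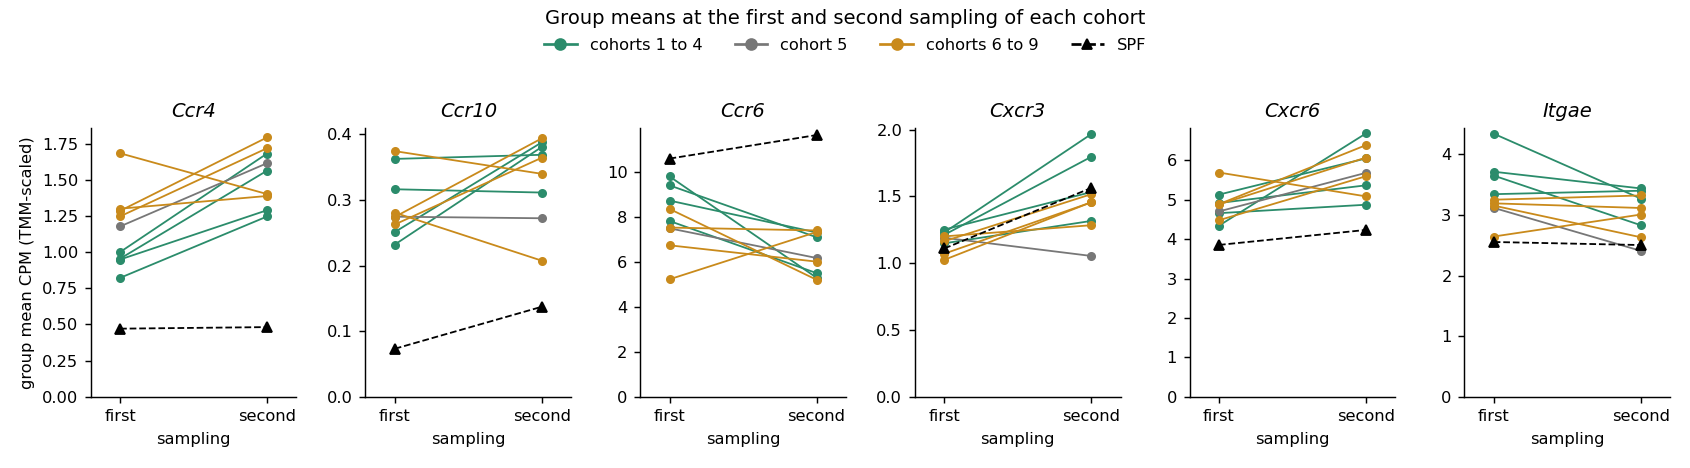
Mean CPM (TMM-scaled) of each cohort at its first and second sampling, 1 line per cohort, with the SPF cohort dashed. Lines of Ccr4, Cxcr3 and Cxcr6 go up in 8 of 9 conventional cohorts, against 6, 5 and 3 of 9 in the deposited TPM, those of Ccr6 go down in 8 of 9 on both scales, and the Ccr4 mean of SPF mice lies under every conventional mean.

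Cell type genes moved along with the members. Between samplings 10 of 10 B cell genes and 14 of 16 T cell genes fell, and 9 of 9 neutrophil genes rose. The B cell list summed to a median of 545 CPM at the first and 331 at the second sampling (ranges 149.95 to 839 and 132.7 to 672), and the T cell list to 296 and 258 CPM (ranges 204 to 375 and 155.2 to 434). With score at the second sampling 10 of 10 B cell genes and 14 of 16 T cell genes fell, and on day 44 10 of 10 and 10 of 16 were lower in conventional than in SPF mice. Over the first-sampling days 9 of 10 B cell genes and 12 of 16 T cell genes fell. With library totals alone all 10 B cell genes and all 16 T cell genes fell in each of these comparisons. Thus Ccr6 and Itgae fell in comparisons in which lymphocyte genes fell, and on the TMM scale Ccr4, Cxcr3 and Cxcr6 rose where the T cell genes fell. Among the other blood cells, 8 of 8 erythroid and 6 of 6 platelet genes rose between samplings, with library totals alone 3 and 0, where 2 platelet genes fell. Of 7 monocyte genes 4 rose and 2 fell (1 and 2 with library totals), of 6 plasma cell genes 1 and 3 (1 and 5), of 6 dendritic cell genes 1 and 2 (0 and 5) and of 5 eosinophil genes 1 and 1 (0 and 4).

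Among lymphocyte subsets the lists differed. Of 4 tested T helper type 2 genes 3 rose over the first-sampling days, among them Il1rl1, the receptor of interleukin 33, by 0.23 log2 per 10 days and the cytokine gene Il4 by 0.53, while Gata3, which encodes the type 2 transcription factor, was at -0.036 and not called. With library totals alone 1 rose (Il4) and 1 fell (Gata3). Between samplings 1 of the 4 rose, Il1rl1 at 0.25 log2, and with library totals alone it fell by 0.14. Eosinophils, another type 2 arm, moved over the same days: 4 of 5 eosinophil genes rose on either scale, with Siglecf at 0.78 and Ccr3 at 0.94 log2 per 10 days. Between samplings 9 of 11 type 1 and cytotoxic genes fell and 1 rose, the latter not called with median-of-ratios scaling, with Klrb1c at -0.50 and the natural killer cell receptor Ncr1 at -0.49 log2, while Cxcr3 was at 0.33. All 11 fell with library totals alone. Of 8 regulatory T cell genes 2 rose and 1 fell: Icos was at 0.20 and Il2ra at -0.22, and with library totals alone 5 fell, with Icos at -0.15. On day 44 the regulatory T cell genes Icos and Ikzf2 were higher in conventional mice by 0.54 and 0.51 log2, as Ccr4 was, and none of the 8 was lower. They were at -0.13 and -0.14 with library totals alone, and 2 of the 8 were lower.

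With the mean of the T cell list as a covariate, each estimate holds at a given level of that mean. It is not a ratio to T cell RNA. The Ccr4, Cxcr3 and Cxcr6 changes between samplings were then 0.54 ± 0.099, 0.44 ± 0.080 and 0.31 ± 0.051 log2, larger than without the covariate and called. The Ccr4 difference on day 44 was 1.69 ± 0.39 with an adjusted p of 0.00682. The Ccr6 values were closer to 0: -0.12 ± 0.073 between samplings (adjusted p 0.188), -0.080 ± 0.057 per score point at the second sampling (0.381), -0.25 ± 0.098 at the first (0.193) and -0.31 ± 0.22 on day 44 (0.532). Itgae was at -0.044 ± 0.062 between samplings (0.597) and -0.074 ± 0.046 per 10 days (0.196). B cells also carry Ccr6, and the T and B cell lists fell together, so which cells the Ccr6 reads came from was not tested.

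**Figure D4:**
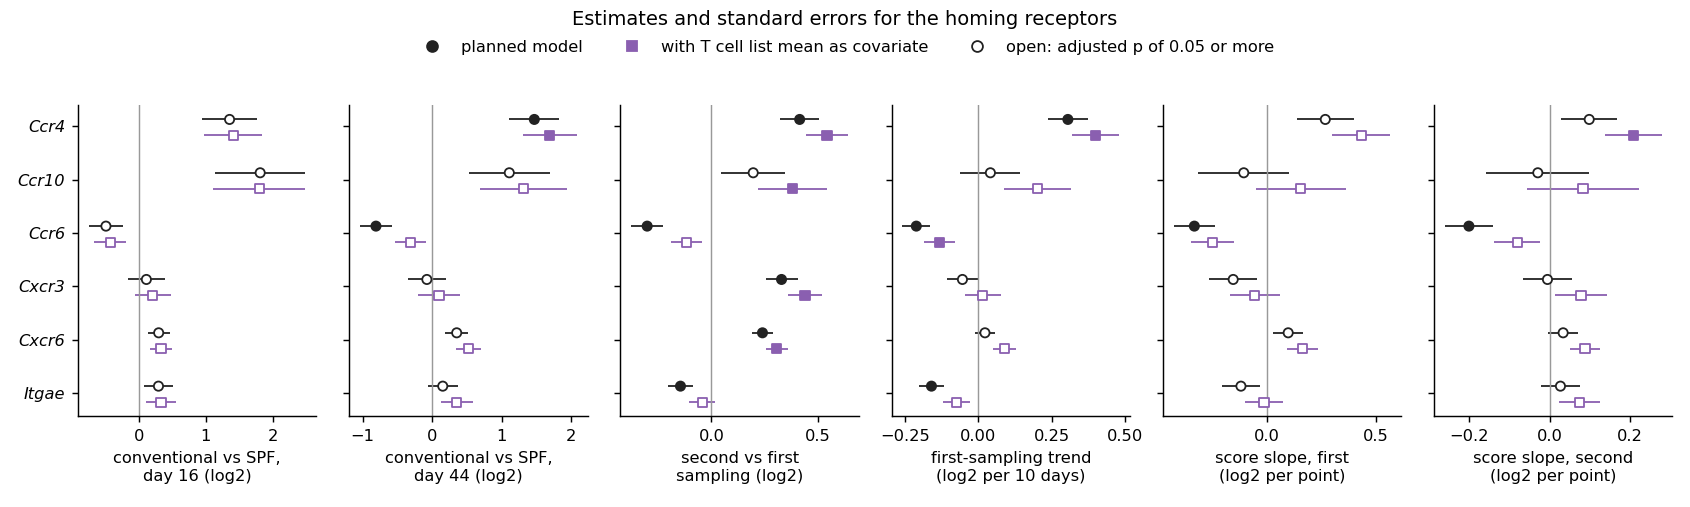
Estimates ± SE in log2 units for the 6 tested members in 6 comparisons, as planned (circles) and with the T cell list mean as a covariate (squares). Filled symbols passed an adjusted p of 0.05. Ccr4 estimates move away from 0 with the covariate, as at the second-sampling score slope (0.099 to 0.21), and Ccr6 estimates move toward 0.

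Ligand genes of these receptors are made mainly in tissue, and most were hardly present in blood: 6 of 12 could be tested between samplings. There 2 rose and none fell, Ccl8, a ligand of Ccr8, by 2.35 ± 0.29 log2 and Cxcl9, a ligand of Cxcr3, by 1.02 ± 0.31, with adjusted p-values of 9.39e-13 and 0.00249. Over the first-sampling days 3 of 5 tested ligand genes rose: Cxcl9 by 1.42 ± 0.24 log2 per 10 days, Cxcl10 by 0.59 ± 0.17 and Cdh1, the partner of Itgae, by 0.26 ± 0.059, the last at 0.091 and not called with library totals alone. On day 44 Cxcl9 was higher in conventional mice by 3.82 ± 1.16 log2 (adjusted p 0.0144), 1 of 6 tested. With score at the second sampling Ccl8 rose by 0.59 ± 0.17 log2 per point and Cdh1 fell by 0.15 ± 0.060, 2 of 5 tested. At the first sampling edgeR called 0 of 3, with 0 at an unadjusted p under 0.05 and 0 called by DESeq2. Ccl22, a ligand of Ccr4, was at 0.47 ± 0.23 log2 between samplings with an adjusted p of 0.0695.

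Genes for rolling and arrest on the vessel wall, and the Itgae partner chain, were all expressed, and their balance of rises and falls depended on the scaling. On the TMM scale 8 of 12 rose and 1 fell between samplings, and 11 rose and 1 fell over the first-sampling days. With library totals alone 4 rose and 5 fell between samplings, and 4 rose and 2 fell over the days. Cd44, a hyaluronan receptor, rose by 0.75 ± 0.070 log2 between samplings, Gcnt1, an enzyme that builds selectin ligands, by 0.67 ± 0.060, and St3gal4, a sialyltransferase of the same pathway, by 0.90 ± 0.086. These 3 also rose with library totals alone, by 0.42, 0.32 and 0.52. The 1 that fell in both was Itgb7, at -0.16 ± 0.048 log2 between samplings and -0.21 ± 0.038 per 10 days, in the same direction as its partner Itgae. On day 44 6 were higher and Itgb7 was lower, at -0.59 ± 0.15 log2, while Itgae was not called. With score 5 rose and 3 fell at the second sampling, and 3 rose at the first. With library totals alone none was higher on day 44 and 2 were lower, and with score 5 fell at the second sampling and none was called at the first. Blood can carry some skin RNA from the tail puncture: 9 skin, hair and muscle genes summed to 3.47 to 255 CPM at the first sampling and 0.763 to 36.3 at the second, and 6 of 8 tested fell between samplings, while Cdh1, which skin also expresses, was at 0.095 ± 0.084 log2. On library totals 7 of the 8 fell. Their part in these results was not tested. Neutrophils and monocytes express several of the rolling and arrest genes, and 9 of 9 neutrophil genes rose in the same comparisons on the TMM scale. With library totals alone 9 rose between samplings and over the days, and 8 were higher on day 44. With score 6 then rose at the second sampling and 1 at the first.

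Receptors outside the members showed both directions on the TMM scale and with library totals alone, except that with the latter none was called on day 16 or with first-sampling score. Between samplings 6 of 14 tested other chemokine receptors rose and 5 fell (3 and 7 with library totals), with Cxcr2, a neutrophil receptor, up by 1.55 ± 0.14 log2, Ccr1 up by 1.30 ± 0.13 and the gut-homing receptor Ccr9 at -0.94 ± 0.075. Over the first-sampling days 7 rose and 4 fell (5 and 6), with Cxcr2 up by 1.10 ± 0.096 per 10 days, Ccr1 by 1.01 ± 0.091 and the monocyte receptor Ccr2 by 0.54 ± 0.053. On day 44 7 were higher and 5 lower (3 and 5): Cxcr2 by 2.28 ± 0.35, Ccr1 by 2.07 ± 0.33 and the B cell follicle receptor Cxcr5 at -0.997 ± 0.20. On day 16, where no member was called, Ccr3, the eosinophil receptor, was higher by 2.39 ± 0.40, Ccr2 higher by 1.07 ± 0.25 and Cxcr5 was at -0.84 ± 0.20. With score at the second sampling 4 of 13 rose and 5 fell (1 and 8), led by Ccr9 at -0.32 ± 0.054 log2 per point, Ackr1 at 0.54 ± 0.11 and Cx3cr1 at -0.16 ± 0.039. At the first sampling 2 rose and 2 fell, led by Ccr1 at 0.60 ± 0.13, Cxcr2 at 0.63 ± 0.14 and the lymph node receptor Ccr7 at -0.28 ± 0.063. The skin-homing receptor Ccr4 was called higher, on the TMM scale, in comparisons in which the gut-homing Ccr9 and the lymph node receptor Ccr7 fell. Over the first-sampling days Ccr9 and Ccr7 were at -0.30 ± 0.049 and -0.24 ± 0.033 log2 per 10 days. Most T and B cell genes fell in these comparisons too, and Ccr10, the receptor for a keratinocyte chemokine, was called in none as planned.

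Between mice of the same group the measured levels of the members had low correlations with one another. After group means were removed, the highest Pearson r between 2 members over 190 libraries was 0.38, for Ccr4 and Itgae, and Cxcr3 and Cxcr6, which were both called higher between samplings on the TMM scale, had 0.10. Among 14119 protein-coding genes those most like Ccr6 were Itpr1, with an r of 0.85, Cd22, a B cell surface receptor, with 0.84, and H2-Ob, a class II chain of B cells, with 0.84. For Ccr4 they were Utrn, Nlrc3 and Il18r1, the interleukin 18 receptor, each with an r of 0.43. For Cxcr6 they were D16Ertd472e with 0.40, Il18r1 with 0.37 and the T cell costimulator Icos with 0.35. For Cxcr3 the most like gene was Itgb7 with 0.47, followed by Rnf220 and Crip1 with 0.44 each. For Itgae they were Ppcdc with 0.49, Tbc1d10c with 0.47 and Dock2 with 0.45, and for Ccr10 Rtel1 with 0.39, Celsr1 with 0.37 and Sigirr with 0.36. These values share library depth and cell makeup.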

How the data were processed

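RNA from tail-vein blood was isolated and made into stranded, ribosomal- and globin-depleted libraries, per the labels' protocols. The authors deposited 1 table of expected counts and 1 of TPM per gene and library, and 2.86% of the count values were not whole. Reads were processed with DRAGEN on GRCm39, per the submitters' processing notes. Its version, annotation release and strand setting were not given in the sources used here. All 380 columns were matched to the 190 libraries by library name, and no 2 libraries were identical.

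Expected counts were rounded, filtered with filterByExpr (minimum count 10, minimum total 15), TMM-scaled and tested with edgeR 4.0.16 (R 4.3.3, quasi-likelihood, robust, two-sided) over all genes kept, with Benjamini-Hochberg adjustment. Score slopes (90 and 60 libraries), their difference (150) and the change between samplings (180) had cohort as a covariate. The slope difference, the change between samplings and the day 16 housing fit took repeat bleeds as independent. The day trend used 90 libraries, and housing used 30 (cohort 5 and SPF) or 55 (day 44). SE is the absolute log2 value over the square root of F. CPM are over 190 libraries and 18192 genes, and likeness was taken on log2(CPM + 0.5). DESeq2 1.42.0 and scaling by library totals without TMM were alternatives. The fits were tested on simulated data.

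The 6 tested members were named in every comparison and Ccr8 by its reads, with up to 3 called genes by smallest p from each list of ligands, partner genes and other receptors, up to 2 from each cell type list, and the 3 protein-coding genes of highest r for likeness. Itgb7, Ccl22 and Cdh1 between samplings, Itgb7 and Ccr9 and Ccr7 over days, Itgb7 on day 44, and Gata3, Siglecf and Ccr3 in the text on type 2 genes were named after their values were seen. The members and the lists were chosen with earlier results of these data known. Ccr8 is outside every test. The result of 1 cell type list is not reported here.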

Additional observations from a re-analysis of the deposited data

Results flagged for a closer look

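Of 120 sets of 1 member in 1 group, 11 held a library farther from its group than Dixon's test allows at 95%. Chance alone flags about 1 in 20 groups. Ccr4 was high in cohort 2 on day 5 (replicate 10, 2.325 CPM) and in cohort 5 on day 44 (replicate 4, 3.642 CPM). Ccr10 was high in cohort 8 on day 26 (replicate 3, 0.6911 CPM) and in cohort 9 on day 44 (replicate 7, 1.036 CPM). The same day 26 library was also high for Itgae, at 4.48 CPM. Ccr6 was low in cohort 8 on day 26 (replicate 1, 3.226 CPM) and in cohort 9 on day 30 (replicate 2, 3.076 CPM). Cxcr3 was high in cohort 1 on day 44 (replicate 3, 3.738 CPM) and in cohort 6 on day 19 (replicate 5, 2.104 CPM), and low in cohort 3 on day 44 (replicate 5, 0.5521 CPM), the library of score 4. Cxcr6 was low in cohort 7 on day 44 (replicate 4, 2.194 CPM).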

How the results depend on the processing

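Over 532 estimates of single members under alternatives, 452 kept direction and side of the threshold, 32 lost a call, 8 gained one and 40 changed sign. None of the sign changes was of a member called as planned except Itgae over days within cohorts 6 to 9 (0.0047 log2 per 10 days) and, with library totals alone, Cxcr3 and Cxcr6 between samplings. Cxcr6 over days, not called as planned, changed sign and was called lower with library totals alone. The cause was not tested. Few reads limit Ccr10 and Ccr8, and 5 SPF mice limit the housing tests.

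As planned, the second-sampling score called 1 member and 6670 genes, the first-sampling score 1 and 1932, the slope difference 0 and 411, the day trend 3 and 9212, the change between samplings 5 and 10932, and day 44 housing 2 and 3588. Within cohorts 6 to 9 the second-sampling score called 0 members and 0 genes, the day trend 0 and 214, and the change between samplings 2 and 3574. Within cohorts 1 to 4 the trend called 0 members and 4202 genes. At score 0 only it called 1 member. Grouped scores called 0 members at the second sampling (score 2 or more) and 0 members and 552 genes at the first (above 0). With globin and mitochondrial RNA covariates 3214 genes were called for the second-sampling score, 0 for the slope difference, and 3.25% of genes with 1 member for day 16, against 0.747% as planned. With the T cell covariate 1867 genes were called for the second-sampling score, 0 members and 2 genes for the first, 206 for the slope difference, 0.456% for day 16, and 1 member and 487 genes for day 44. DESeq2 called 1243 genes for the slope difference, and 3.14% and 1 member on day 16. Library totals alone, chosen after seeing the data, called 0 members and 7 genes for the first-sampling score, 7 genes for the slope difference, 2 members between samplings, 0.114% of genes on day 16, and 1 member and 7860 genes on day 44. No count filter gave 1323 genes and 0.193%. The 8 mildest day 44 libraries against SPF gave 0 members and 0 genes, a choice made after seeing the data, as were the left-out days, cohorts and score 4 library. Where edgeR called 0 genes, the count at an unadjusted p under 0.05 was 2447 (score, cohorts 6 to 9), 1336 (slope difference, globin covariates) and 2915 (mildest libraries). Without 1 SPF replicate in turn, day 16 called 0 to 1 members and 0.0936% to 0.816% of genes, and day 44 called 2 members in each case and 2148 to 2753 genes.

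With library totals alone Cxcr3, Cxcr6 and Ccr10 between samplings were at -0.055, -0.12 and -0.19, Ccr10 and Cxcr6 over days at -0.12 and -0.15, Ccr4, Cxcr6 and Itgae with second-sampling score at -0.071, -0.14 and -0.13, Cxcr6 with first-sampling score at -0.017, and Cxcr6 and Itgae on day 44 at -0.35 and -0.52. Other sign changes with score at the second sampling were, within cohorts 1 to 4, Ccr4 at -0.079, Cxcr6 at -0.012 and Itgae at -0.051. Within cohorts 6 to 9 Ccr10 was at 0.011. With the T cell covariate Ccr10 was at 0.083 and Cxcr3 at 0.078. For score 2 or more they were at 0.096 and 0.020. Without the score 4 library Cxcr3 was at 0.012. With the T cell covariate Ccr10 was at 0.15 for the first-sampling score and 0.015 for the slope difference, where Cxcr6 with globin covariates was at 0.012. Over days Ccr10 was at -0.053 within cohorts 1 to 4, -0.019 at score 0, -0.014 without day 2 and -0.059 without day 30. Cxcr3 was at 0.11 with globin covariates, 0.016 with the T cell covariate, 0.0038 within cohorts 1 to 4 and 0.11 within cohorts 6 to 9. Cxcr6 was at -0.040 with globin covariates, -0.095 within cohorts 6 to 9 and -0.0077 without day 23. On day 16 Cxcr3 ran from -0.068 without SPF replicate 1 to 0.28 without replicate 5. On day 44 Cxcr3 was at 0.044 with globin covariates and 0.099 with the T cell covariate, and Itgae at -0.099 against the mildest libraries.

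Replicate numbers did not pair the libraries: over 95 pairs of same-numbered libraries r ran from -0.52 to 0.73 with a median of 0.088, 46 were over 0.1, and 15 matched best with their own number. With the replicate block the first-sampling score called 0 members and 622 genes (Ccr6 at -0.37, adjusted p 0.0504), day 16 called 0.373% of genes, and Cxcr3 on day 44 was at 0.016. No other member call changed with the block.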
